A study of Mus musculus with 12 samples.

Results

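Guanylate-binding proteins (GBPs) and immunity-related GTPases (IRGs) are interferon-induced GTPases, and 9 of their genes were followed in RNA sequencing of compressed macrophages. The 9 were chosen by symbol, without a threshold on their values, from 56941 gene IDs in the count table: the GBP genes Gbp2, Gbp3, Gbp5, Gbp7 and Gbp9, and the IRG genes Irgm1, Irgm2, Igtp and Iigp1. RAW264.7, a single established mouse macrophage line, was grown on porous inserts and covered for 24 h either by a slab of agarose on its own (control, n = 6) or by the slab and a printed weight pressing on the cells at 0.14 kPa (compressed, n = 6). No cytokine was named in the labels for either group, and all 12 libraries carry the agarose slab. The comparison asked which transcripts differed with the weight. No source states that the 6 samples of a group were separate cultures, and the p-values therefore speak only to how these libraries varied, a variation that may be technical.

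As background, interferon gamma binds its receptor, JAK kinases signal to transcription factors, and these bind GAS elements, while type I interferon acts through a complex with IRF9 on ISRE elements. Macrophages exposed to interferon produce GBPs and IRGs in quantity. The proteins then gather on vacuoles and membranes that hold bacteria or parasites and help to break them. Within the IRG family, the proteins made by Irgm1, Irgm2 and Igtp sit on the membranes of the cell itself and hold the effector members, such as the product of Iigp1, in an inactive state.

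The bases just upstream of the members' annotated starts are shown because they carry the elements through which interferons are known to act on such genes. RefSeq promoter sequences of the GRCm38.p6 build, covering 250 bases before to 50 bases after a start, held an entry for 7 of the 9 genes. Gbp9 and Iigp1 were not among them. Each line gives 60 bases, 5′ to 3′ on the gene's strand, and capitals mark matches to the ISRE core GAAANNGAAA or, on the other strand, TTTCNNTTTC.
Irgm1, chr11:48871421-48871480, minus strand: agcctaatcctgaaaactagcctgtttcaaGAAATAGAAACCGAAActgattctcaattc
Igtp, chr11:58199496-58199555, plus strand: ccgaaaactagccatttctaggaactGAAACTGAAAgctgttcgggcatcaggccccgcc
Irgm2, chr11:58214888-58214947, plus strand: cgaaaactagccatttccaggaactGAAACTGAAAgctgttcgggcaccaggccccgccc
Gbp2, chr3:142620579-142620638, plus strand: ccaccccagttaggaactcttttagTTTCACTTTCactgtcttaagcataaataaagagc
Gbp3, chr3:142559974-142560033, plus strand: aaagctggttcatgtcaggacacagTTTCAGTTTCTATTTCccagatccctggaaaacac
Gbp5, chr3:142496744-142496803, plus strand: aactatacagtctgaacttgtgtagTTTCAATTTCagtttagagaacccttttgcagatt
Gbp7, chr3:142530258-142530317, plus strand: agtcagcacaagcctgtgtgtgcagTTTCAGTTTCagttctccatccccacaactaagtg

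These 7 genes had 8 windows, since Gbp3 has a pair of annotated starts. The ISRE core occurred in 7 of the 8 windows, all but 1 of those of Gbp3, against 3.44% of 32851 promoter windows of the same length. In Irgm1 and in Gbp3, a pair of matches overlapped to give 1 longer run of capitals. The GAS motif TTCNNNGAA, which reads the same on both strands, occurred in 4 of the 8 windows, those of Gbp5, Gbp7, Igtp and Irgm2, against 8.30% of all windows. The upstream stretches of Igtp and Irgm2 were nearly the same sequence, with 72 of 74 aligned bases identical (97.3%). A match describes letters in a window, and no binding was measured here.

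**Figure D1:**
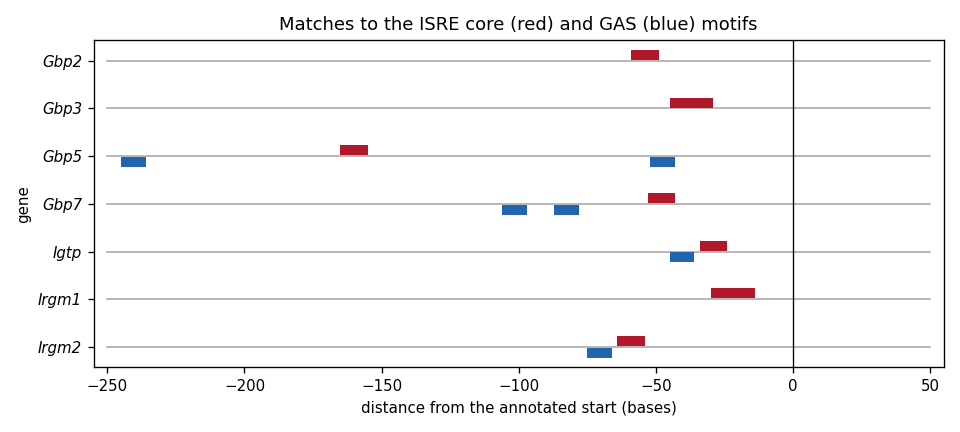
Position of motif matches in the 7 promoter windows, with distance from the annotated start in bases on the x axis and 1 line for each gene. Red blocks are ISRE core matches and blue blocks GAS matches. ISRE core matches of 6 genes lie between positions -64 and -15 from the start, and that of Gbp5 lies at -165 to -156.

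The libraries held 33460807 to 40463545 counts. Of 15001 genes that passed the low-count filter, edgeR's quasi-likelihood test called 24.5% higher and 21.9% lower in compressed cells at an adjusted p of 0.05 or less, with a median log2 fold change of 0.02. Compressed replicate 6 stood apart from the rest of its group: its correlation with compressed replicates 1 to 5 was 0.968 to 0.975, against 0.994 to 0.996 among those 5. Relative to them its log2 level was 0.51 higher at the median for genes with under 2000 bases of exon, and for genes with over 6000 bases the median difference was -0.52. Results are therefore given with and without it. All 10 macrophage markers examined passed the low-count filter. Summed, they held 6384 to 6840 counts per 1000000 (CPM) in controls and 7924 to 9791 in compressed libraries. By edgeR 6 of them were higher and 2 lower in compressed cells. Mertk was low among them, at a mean of 0.308 CPM in controls. The 18 markers of other cell types summed to 0.797 to 1.31 CPM in controls and 1.13 to 1.66 in compressed libraries. Of these 18, 6 were at 0 in all libraries, among them Cd3e and S100a9. The 1 such marker that was tested, Pecam1, rose by 0.77 on the log2 scale (adjusted p 0.0152 by edgeR), and S100a8, chosen after its values were seen, went from 21 to 55 counts (DESeq2 log2 fold change 1.55, adjusted p 0.00339). Their part in the results was not tested.

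Most members had less transcript in compressed than in control cells. Of the 8 members that passed the low-count filter, 6 were lower in compressed cells by edgeR (3 GBP and 3 IRG genes), against 21.9% of all tested genes. In the other direction 0 were called, with 0 at an unadjusted p under 0.05 and 0 by DESeq2, and 2 GBP genes, Gbp2 and Gbp5, were not called. Iigp1 was below the filter. The median log2 fold change of the 8 was -0.91, against 0.02 for all tested genes. In 5 members every compressed library was below every control library, a separation in the same direction found in 2557 of all 15001 tested genes. The counts were also 6 lower and 0 higher without compressed replicate 6. In cell populations such as these, a smaller share of cells making a transcript and less of it in each cell cannot be told apart.

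**Figure D2:**
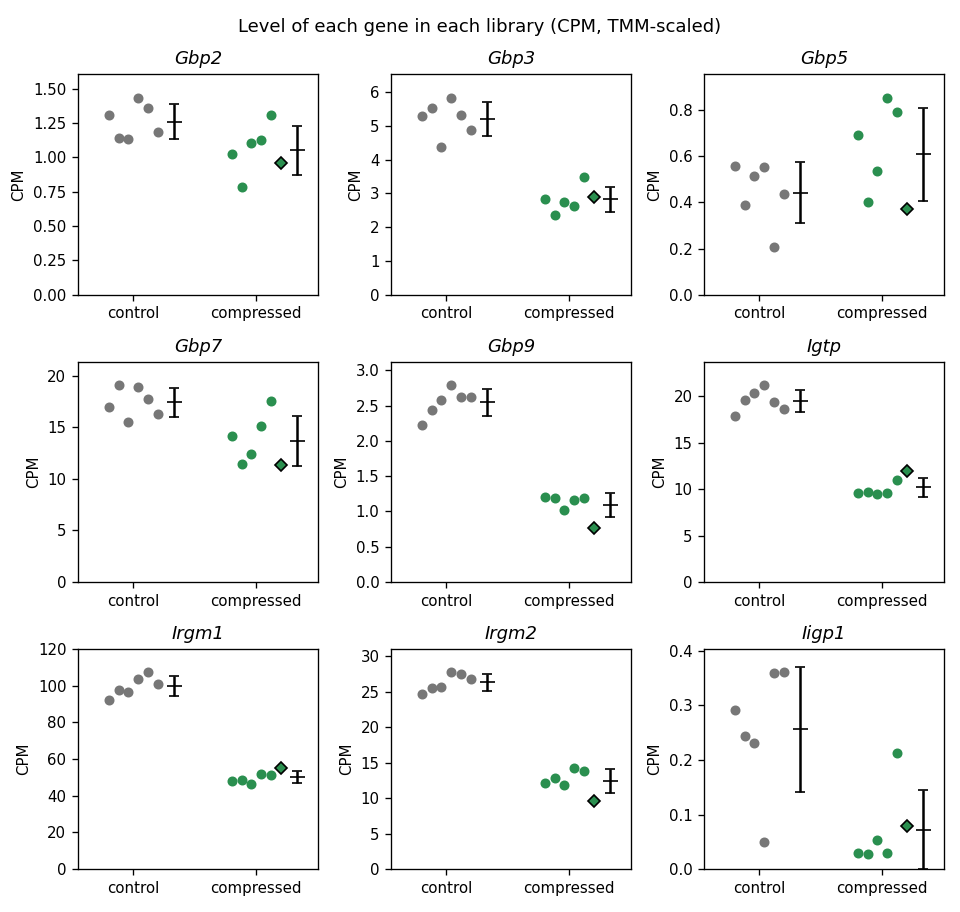
Level of each of the 9 genes in each library, in CPM scaled by TMM, for 6 control (grey) and 6 compressed (green) libraries. The outlined diamond is compressed replicate 6, and black bars are the mean ± SD of 6 libraries. In Irgm1, Irgm2, Igtp, Gbp3 and Gbp9 the groups do not overlap, while in Gbp2, Gbp5, Gbp7 and Iigp1 they do.

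The regulatory IRG genes were the most abundant members per length, and each was lower by 47.7% to 52.8%. Irgm1 (ENSMUSG00000046879), needed in mice for defence against mycobacteria and other vacuolar pathogens, ranged from 92.4 to 107 CPM in controls with a median of 99.4. In compressed cells it ranged from 46.2 to 55.3 CPM with a median of 49.9. The highest compressed library, replicate 6, was far below the lowest control. Its mean fell from 99.7 ± 5.26 to 50.2 ± 3.32 CPM (SD, n = 6), which is 49.7% lower, for a log2 fold change of -0.99 ± 0.055 (SE) and an adjusted p of 7.97e-09 by edgeR. These levels rest on 23793 control and 10582 compressed counts.

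Irgm2 (ENSMUSG00000069874), whose product is found at the Golgi, ranged from 24.6 to 27.7 CPM in controls with a median of 26.2. In compressed cells it ranged from 9.61 to 14.2 CPM with a median of 12.5. The groups were again apart, here with compressed replicate 6 the lowest library. The mean fell from 26.3 ± 1.21 to 12.4 ± 1.66 CPM (SD, n = 6), for a log2 fold change of -1.08 ± 0.082 (SE) and an adjusted p of 1.50e-07 by edgeR. Igtp (ENSMUSG00000078853), which encodes the endoplasmic reticulum protein also called Irgm3, ranged from 17.8 to 21.2 CPM in controls with a median of 19.5. In compressed cells it ranged from 9.49 to 11.9 CPM with a median of 9.63. Its compressed libraries were tightly grouped except for replicates 5 and 6 (10.96 and 11.9 CPM), which were still below every control. The mean fell from 19.5 ± 1.20 to 10.2 ± 1.01 CPM (SD, n = 6), for a log2 fold change of -0.94 ± 0.069 (SE) and an adjusted p of 1.22e-07 by edgeR. Of the 50-base words in the exons of Igtp, 11.8% also occur in Irgm2, so counting could have moved some reads between them. For Irgm1 only 0.379% of such words occur in any other gene.

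The effector IRG gene Iigp1 (ENSMUSG00000054072) was close to the limit of detection. It held 2 to 14 counts in a control library and 1 to 7 in a compressed one, 61 against 15 in all. Levels ran from 0.0502 to 0.361 CPM in controls with a median of 0.267, and from 0.0269 to 0.213 CPM in compressed cells with a median of 0.0421. The groups overlapped only through control replicate 4, which held 2 counts and 0.0502 CPM. Compressed replicates 3, 5 and 6 lay above that library. Every compressed library lay below the remaining controls, the lowest of which held 0.232 CPM. The ratio of compressed to control level was 0.278, with a 95% interval of 0.147 to 0.496 that covers counting error only, and the exact two-sided permutation test over 924 splits of 6 against 6 libraries gave an unadjusted p of 0.0108. DESeq2, which used no such filter, gave a log2 fold change of -1.86 and an adjusted p of 0.00511, and edgeR without the filter gave -1.80 and 0.0129.

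The GBP genes were more varied than the IRG genes. Gbp9 (ENSMUSG00000029298) had the largest fall of the 8 tested members and stood at 0.400% from the lowest end of all tested genes ranked by log2 fold change. It ranged from 2.23 to 2.79 CPM in controls with a median of 2.60, and from 0.769 to 1.21 CPM in compressed cells with a median of 1.17. The groups did not overlap, and compressed replicate 6 was the lowest library. The mean fell from 2.55 ± 0.192 to 1.09 ± 0.170 CPM (SD, n = 6), for a log2 fold change of -1.23 ± 0.11 (SE) and an adjusted p of 1.06e-06 by edgeR. Its exons share 8.05% of their 50-base words with other genes, most often with Gbp8.

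Gbp3 (ENSMUSG00000028268), a GBP of the chromosome 3 cluster, ranged from 4.38 to 5.83 CPM in controls with a median of 5.30. In compressed cells it ranged from 2.37 to 3.50 CPM with a median of 2.79. No compressed library reached the lowest control, and compressed replicate 6 (2.89 CPM) lay within the range of the other 5. The mean fell from 5.20 ± 0.509 to 2.83 ± 0.379 CPM (SD, n = 6), for a log2 fold change of -0.88 ± 0.0995 (SE) and an adjusted p of 6.99e-06 by edgeR. Gbp7 (ENSMUSG00000040253), known for a role in assembling the phagocyte oxidase, ranged from 15.5 to 19.1 CPM in controls with a median of 17.4. In compressed cells it ranged from 11.4 to 17.5 CPM with a median of 13.3. The fall was smaller and the groups overlapped, since 5 of 6 compressed libraries lay below the lowest control and replicate 5 lay among the controls. The mean fell from 17.4 ± 1.42 to 13.7 ± 2.41 CPM (SD, n = 6), for a log2 fold change of -0.35 ± 0.104 (SE) and an adjusted p of 0.0134 by edgeR. Gbp7 shares 12.7% of its 50-base words with other genes, most of them with the gene model Gm43802.

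Gbp2 and Gbp5 encode GBPs that end in a prenylation motif and so attach to membranes by a lipid anchor. Gbp2 (ENSMUSG00000028270) ranged from 1.13 to 1.43 CPM in controls with a median of 1.25, and from 0.781 to 1.31 CPM in compressed cells with a median of 1.06. The groups overlapped, although 5 of 6 compressed libraries were below the lowest control. Its log2 fold change was -0.27 ± 0.128 (SE) with an adjusted p of 0.105 by edgeR, which did not pass. The 95% interval, -0.52 to -0.02, left room for a fall like that of Gbp7. It lay wholly below no change although the unadjusted p by edgeR was not under 0.05, so the interval is narrower than the test. Other settings brought Gbp2 past the threshold, scaling by library size alone (-0.33) and leaving out compressed replicate 5 (-0.34).

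Gbp5 (ENSMUSG00000105504), linked in macrophages to assembly of the NLRP3 inflammasome, was the only tested member with a higher mean in compressed cells. It ranged from 0.206 to 0.557 CPM in controls with a median of 0.477, and from 0.371 to 0.853 CPM in compressed cells with a median of 0.616. The groups overlapped widely, and the totals were 106 control and 126 compressed counts. The log2 fold change was 0.44 ± 0.263 (SE), with a 95% interval of -0.08 to 0.96 and an adjusted p of 0.195 by edgeR. Without compressed replicate 6 it was 0.54 with an adjusted p of 0.0559, so that neither a rise nor the absence of one was shown.

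**Figure D3:**
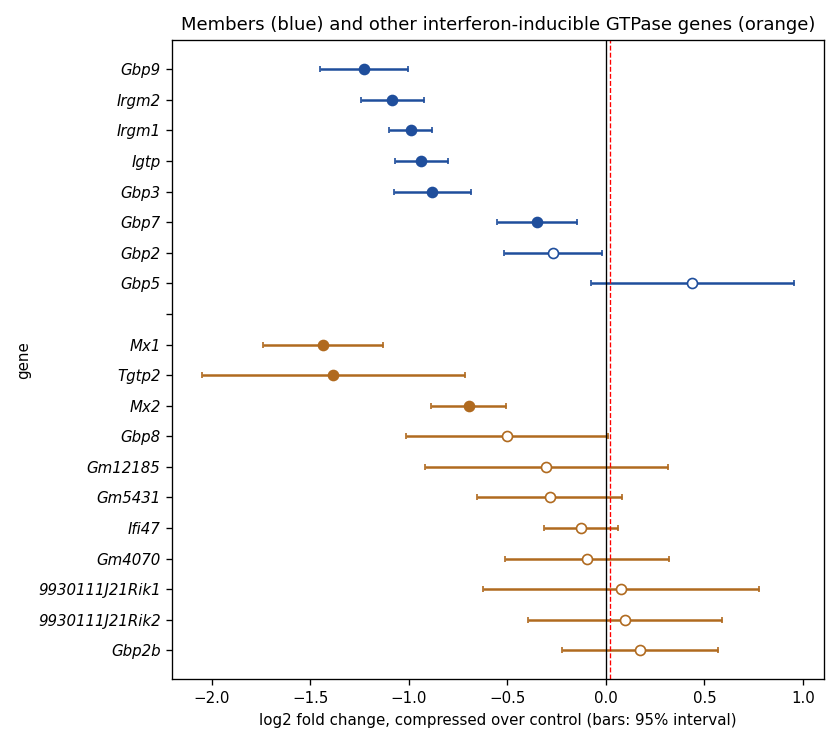
Log2 fold change of compressed over control cells for the 8 tested members (blue) and 11 other tested interferon-inducible GTPase genes (orange), with bars of 95% intervals from edgeR's standard errors. Filled points passed an adjusted p of 0.05, the black line is 0 and the dashed red line is the median of all tested genes, 0.02. Gbp9, Irgm2, Irgm1, Igtp and Gbp3 lie together between -1.23 and -0.88, while Gbp7 lies at -0.35.

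Among the members that fell, Gbp9, Irgm2, Irgm1, Igtp and Gbp3 had 95% intervals that overlapped in a chain, with a lower end of -1.45 for Gbp9 and an upper end of -0.69 for Gbp3. The interval of Gbp7, -0.55 to -0.15, lay apart from all of these. Differences between genes were not tested. Compressed replicate 6 moved differently from member to member: compared with the other compressed libraries its log2 level was 0.27 higher for Igtp, with 2022 bases of exon, and 0.17 higher for Irgm1, with 5810 bases. For Gbp9 (5173 bases) it was lower, at -0.58, and for Irgm2 (3690 bases) at -0.43. The part of transcript length or RNA quality in these offsets was not tested. Without that library the log2 fold changes were -1.15 for Gbp9, -1.02 for Irgm2, -1.02 for Irgm1, -0.99 for Igtp, -0.89 for Gbp3 and -0.31 for Gbp7.

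Levels of different genes are compared per length, as CPM per 1000 bases of exon. Exon length is the union of all annotated exons of a gene. Transcripts in use may be shorter, and the order of genes depends on this choice. In control cells Irgm1 stood highest at 17.2 ± 0.905 (SD, n = 6), followed by Igtp at 9.65 ± 0.593, Irgm2 at 7.12 ± 0.328, Gbp7 at 3.10 ± 0.252 and Gbp3 at 1.59 ± 0.156. Down to that place the ranges of neighbouring genes did not overlap. Gbp2 at 0.501 ± 0.0495 and Gbp9 at 0.492 ± 0.0372 could not be ranked, since their ranges overlapped, and the same held for Gbp5 at 0.0667 ± 0.0202 and Iigp1 at 0.0440 ± 0.0197. Irgm1 alone made up 43.2% of the summed level of the 9 genes per length. Summed over its 4 members, the IRG level was 34.0 ± 1.58 in control and 17.1 ± 0.934 CPM per 1000 bases in compressed cells (SD, n = 6), with ranges of 31.4 to 35.8 and 15.9 to 18.04. The 5 GBP members summed to 5.76 ± 0.436 in control and 4.02 ± 0.624 in compressed cells, with ranges of 5.14 to 6.34 and 3.37 to 5.06. In both families the summed ranges of the groups were apart.

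Other interferon-inducible GTPase genes, a list of further GBP and IRG genes with the giant interferon-inducible GTPases and the antiviral dynamin-like Mx1 and Mx2, were counted next. Of 22 matched genes 11 were tested, and 3 of these were lower, a share near the 21.9% of all tested genes, with 0 higher by edgeR, 0 higher at an unadjusted p under 0.05 and 0 higher by DESeq2. The median log2 fold change was -0.29. Mx1 fell by 1.43 on the log2 scale (adjusted p 4.76e-06), Tgtp2, an IRG effector gene, by 1.38 (0.00435) and Mx2 by 0.70 (4.54e-05). Tgtp2 rested on 84 control and 28 compressed counts, and its groups overlapped, while those of Mx1 and Mx2 did not. Values for those not called were -0.13 for Ifi47 (adjusted p 0.302), -0.50 for Gbp8, 0.17 for Gbp2b, -0.29 for Gm5431, -0.30 for Gm12185, -0.09 for Gm4070, 0.08 for 9930111J21Rik1 and 0.10 for 9930111J21Rik2. Without compressed replicate 6 the counts were 4 lower and 2 higher, with Ifi47 at -0.23 (0.00194) and 9930111J21Rik2 at 0.29 (3.88e-04). That library held 11.4 CPM of Ifi47 against 7.28 to 8.80 in the other compressed libraries, and 3.90 CPM of 9930111J21Rik2 against 13.5 to 17.6. Gm12250, the IRG gene also called Irgb10, was chosen after its values were seen and was below the filter, with 62 control and 18 compressed counts and no overlap between groups.

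With all 12 libraries, most genes that carry the interferon gamma signal were not called. Of 13 tested genes 4 were higher, a share near the 24.5% of all tested genes, and 1 was lower, against 21.9%. The count of higher genes was 3 with RLE factors, with a replicate block or at an adjusted p of 0.01. The median log2 fold change of the 13 was 0.08. Transcript for the ligand, Ifng, came to 1 count over all 12 libraries. The receptor chains Ifngr1 and Ifngr2 had log2 fold changes of 0.04 and 0.07 (adjusted p 0.524 and 0.345). Of the receptor's kinases, Jak2 rose by 0.93 ± 0.10 (SE, adjusted p 5.44e-06), while Jak1 was at 0.13 (0.394). Irf1, a transcription factor that acts on GBP genes, fell by 0.20 (0.0133), whereas Irf8, its relative in myeloid cells, rose by 0.56 (2.63e-07). Among the brakes on the pathway Socs3 rose by 1.76 (4.37e-09) and Ptpn6 by 0.11 (0.0407), and Socs1, Ptpn2, Pias1 and the repressor Irf2 were at 0.16, -0.02, -0.08 and 0.08 without passing. The counts were 6 higher and 3 lower without compressed replicate 6, so that most were then called. Jak1 was then at 0.23 (adjusted p 3.85e-07 by edgeR).

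Other genes that interferon gamma is known to induce included 6 higher and 6 lower of 23 tested, shares near the 24.5% and 21.9% of all tested genes, with a median of -0.10. Those that rose most were Nos2, the inducible nitric oxide synthase, at 3.63 on the log2 scale (adjusted p 2.98e-09), Cd274, which encodes PD-L1, at 1.64 (7.07e-08), Cd74, the invariant chain of MHC class II, at 1.51 (5.66e-09) and Cd40 at 1.24 (3.08e-08). Genes named after their values were seen include Parp14 at -0.49 (0.0175) and Fcgr1 at -0.39 (7.95e-05), both lower. The class II chain genes H2-Ab1 (0.25, adjusted p 0.239) and H2-Eb1 (-0.29, 0.225) were not called by edgeR. The count of lower genes was unsteady: it was 12 without compressed replicate 6, 2 without compressed replicate 1 or 3, and 3 without compressed replicate 2 or 4 or control replicate 2 or 3. The count of higher genes was 6 without compressed replicate 6.

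Genes known to respond to type I interferon were mostly lower, beside 21.9% lower and 24.5% higher over all tested genes. Of 24 type I targets, all tested, 17 were lower and 0 higher by edgeR, with 1 higher at an unadjusted p under 0.05 and 0 by DESeq2, and the median was -0.48. The largest falls were those of Ifit3b at -1.46 (adjusted p 1.60e-06), Oasl2 at -1.14 (2.06e-07), Ifi44l at -1.06 (4.40e-05) and Cmpk2 at -1.06 (2.32e-07). With compressed replicate 6 left out, 20 were lower and 2 higher. Of the 8 tested genes of type I signaling, Usp18 fell by 0.92 (4.13e-07), Irf7 by 0.47 (2.93e-05) and Irf9, a part of the complex that binds ISRE elements, by 0.20 (9.20e-04), while Tyk2 rose by 0.44 (0.0132) and Ifnar1 by 0.30 (0.00461). The median there was -0.08, and without compressed replicate 6 there were 4 lower and 2 higher. Ifnb1 held 15 counts in each group. The ISRE core was present in 12 of 21 promoter windows of type I target genes. It was in 3 of 18 for other interferon gamma targets, 7 of 10 for other GTPase genes and 7 of 8 for the members. The GAS motif was in 4 windows of each of these lists. Gbp2 and Gbp5 carry the ISRE core and were not called, and a link between motif matches and fold changes was not tested.

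**Figure D4:**
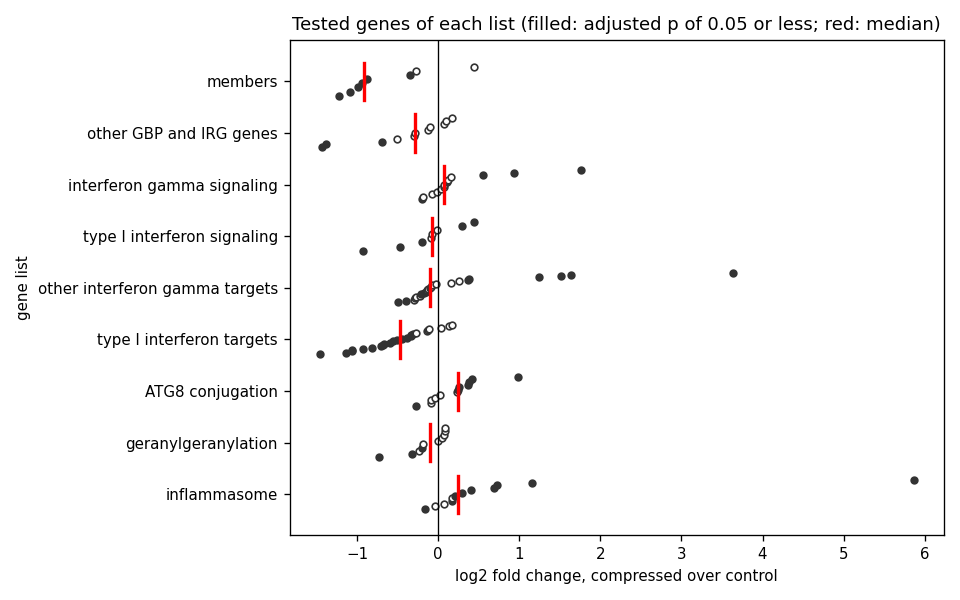
Log2 fold change of compressed over control cells for each tested gene of 9 lists, 1 point a gene, filled where edgeR's adjusted p was 0.05 or less. Red bars are the list medians, which run from -0.91 for the members to 0.25 for the inflammasome list. Points of the other interferon gamma targets lie on both sides of 0, and the called type I interferon targets all lie below it.

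Genes that act with the GTPases were also counted, beside 24.5% higher and 21.9% lower over all tested genes. The ATG8 conjugation machinery, through which IRGs and GBPs are directed to vacuoles, had 6 of 12 genes higher, 1 lower and a median of 0.24. Map1lc3a rose by 0.98 (adjusted p 2.55e-05), Atg12 by 0.41 (7.95e-07), Atg16l1 by 0.39 (3.45e-06) and Atg10 by 0.37 (0.00379). In the pathway that makes and attaches the geranylgeranyl anchor used by some GBPs, 3 of 10 were lower by edgeR and 7 not called. By edgeR 0 were higher, with 0 higher at an unadjusted p under 0.05 and 0 by DESeq2, and the median was -0.10. Idi1 fell by 0.73 (9.52e-06) and Mvk by 0.32 (0.0217), and both belong to the mevalonate pathway that also feeds sterol synthesis. The inflammasome list, whose sensors and caspases GBPs are known to feed, had 8 of 12 tested genes higher, 1 lower and a median of 0.25. Its largest changes were those of Il1b at 5.87 (1.74e-10), Nlrp3 at 1.16 (1.26e-07), Ninj1 at 0.73 (4.25e-05) and Casp4, the sensor caspase for cytosolic lipopolysaccharide, at 0.69 (4.13e-07). The adaptor gene Pycard, also on that list, held 1 count in each group and was not tested. Without compressed replicate 6 the ATG8 list had 7 higher and 4 lower, the anchor list 2 higher and 5 lower, and the inflammasome list 10 higher and 2 lower.

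Gbp3, Gbp5 and Gbp7 also belong to a published signature of interferon-rich inflammatory macrophages in tumors, used by the study for its own comparison. Of 21 tested genes of that signature 10 were lower and 1 was higher, against 21.9% and 24.5% of all tested genes. The median was -0.15. All of those lower were also counted in the lists above, so this is not a separate result. Ifit3b, Mx1, Gbp3 and Ifit3 (-0.81, adjusted p 1.17e-05) fell most, and Tnfsf13b, which encodes the B cell factor BAFF, rose by 0.57 (1.92e-04). With compressed replicate 6 left out, 14 were lower and 1 higher.

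Once the group means were removed, the genes whose log2 level followed the mean of the tested members most closely over the 12 libraries were Gm37795 (Pearson r of 0.945), Car7 (0.902), Gm11843 (0.881), Zbtb6 (0.877) and A930014D07Rik (0.875). Their own log2 fold changes were 1.05, 0.32, 2.46, -0.05 and 0.32, against a median of -0.91 for the members. The libraries share depth and preparation, so these values describe a likeness in this set of 12 and nothing more.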

How the data were processed

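The authors aligned reads from directional mRNA-enriched libraries with STAR 2.7.2, and their notes name GRCm39. They deposited whole-number counts for each Ensembl gene ID, with no coordinates. How reads were counted, including use of strand, is not given in the sources used here. Names and exon lengths came from GENCODE M21 by ID (51948 of 56941 IDs, 99.5% of counts). Library totals were 33460807 to 40463545, and intervals on counts cover counting error only.

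Counts were tested with edgeR 4.0.16 in R 4.3.3 (filterByExpr with a minimum count of 10, TMM, quasi-likelihood F test with condition as the 1 term, Benjamini-Hochberg over 15001 genes, called at 0.05 or less). Standard errors were derived from the fold change and F (the size of log2 fold change divided by the root of F). The 95% intervals are 1.96 of them on each side, a normal multiplier, so they are somewhat narrower than the F test implies. On simulated data for this comparison over 15001 genes, edgeR recovered 80 of 100 genes changed 1.5-fold and 95 of 100 changed 2-fold, and 10 of 185 calls were false. Changed genes were drawn from those above a count floor, so recovery does not cover low-count members such as Gbp5. Only 200 genes were changed, far fewer than were called in the data, and no library was made to deviate like compressed replicate 6. Sequences were searched in Python 3.11.15, and 50-base words were compared over all M21 transcripts.

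The members and gene lists were chosen with earlier results of these data known, and no set test was run. Named genes were all members, all tested genes of the interferon gamma signaling and GTPase lists, up to 4 called genes with the largest change in each other list, and the 5 genes most like the members. A few genes taken by it are not reported here. Alternatives were DESeq2 1.42.0, scaling by RLE factors or by library size alone, dropping the low-count filter or raising it to a mean count over 50, an adjusted p of 0.01, replicate number as a block and leaving out each library.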

Additional observations from a re-analysis of the deposited data

Results flagged for a closer look

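Iigp1 in compressed replicate 5 stood at 0.213 CPM, while the other 5 compressed libraries held 0.0269 to 0.0796 CPM. The gap to the nearest of these was 0.717 of the group's range, above Dixon's 95% critical value for 6 samples. It was the 1 such sample among 18 groups examined (9 genes in each condition), and chance alone flags about 1 group in 20. The gene held 15 counts in all compressed libraries together.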

How the results depend on the processing

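The count of members called lower was 5 to 7 and that of members called higher 0 under every alternative. Of 150 fold changes of the tested members under 19 alternatives, 0 changed direction. The alternative of an adjusted p of 0.01 uses the main fit, so its fold changes could not differ. The log2 fold change of Gbp2 passed the threshold with library size alone (-0.33) and without compressed replicate 5 (-0.34), and Gbp7 (-0.35) did not pass an adjusted p of 0.01. Of 418 counts of called genes 32 moved by over 1.5 times. With library size alone 2 interferon gamma signaling genes were lower. At an adjusted p of 0.01 that count was 0, type I signaling had 1 higher, and the counts of lower genes were 1 for other interferon gamma targets, 1 for geranylgeranylation, 0 for the inflammasome list and 6 for the tumor macrophage signature. A mean count over 50 left 1 other GTPase gene lower, and no low-count filter left 0 inflammasome genes lower. Leaving out each library in turn gave 0 to 2 other GTPase genes higher, 1 to 3 interferon gamma signaling genes lower, 2 to 12 other interferon gamma targets lower, 0 to 2 type I targets higher, 1 to 4 ATG8 genes lower, 0 to 2 geranylgeranylation genes higher and 2 to 5 lower, and 0 to 2 inflammasome genes lower. The upper end of each range came without compressed replicate 6, where 5117 genes were higher and 4864 lower over all genes, against 3677 and 3283 with it; the cause was not tested. Replicate numbers did not pair the samples (correlations of -0.12 to 0.040 between same-numbered libraries, and 0 libraries correlated best with their own number), and with a replicate block 2 other interferon gamma targets and 0 inflammasome genes were lower, with no member's call changed. Iigp1 held 61 control and 15 compressed counts, too few for the low-count filter.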
